A study of Mus musculus with 2 samples.

Results

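The genes described here make ribosomes or belong to the Myc and Max network that drives their production. They were chosen as 48 named mouse genes: 7 of the Myc and Max network, 39 that transcribe, modify, cut or assemble ribosomal RNA, and 2 of polyamine synthesis. A gene was measured if a probe annotated to it alone had a value on both arrays, which held for 41 of the 48, on 42 probes, out of 14150 genes measured in all. The other 7 (Dkc1, Gnl3, Nob1, Npm3, Rrp12, Utp14a and Utp18) were not analysed here. The rule goes by gene name and by the presence of both values, not by their size. The list itself was chosen with earlier results of these data known.

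CD8+ T cells of a pmel transgenic mouse, whose receptor recognises the melanocyte antigen gp100, were compared after 2 rounds and after 1 round of stimulation in culture. The labels give no age, strain background or stimulus. Total RNA of cells after 2 stimulations (channel 2) and of cells after 1 stimulation (channel 1) was hybridised together on each of 2 arrays, and the arrays are the only replicates. Whether the repeat array used a new culture is not stated, so errors and p-values cover only array-to-array spread, possibly of technical origin.

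The values are log ratios of the channels, taken as log2. The base is not stated, and neither is which stage is the numerator. Titles and channel numbers alike name 1 stimulation first, so 1 over 2 stimulations is likely on that basis alone: a negative value would then be RNA more abundant after 2 stimulations, a positive value RNA more abundant after 1 stimulation. With the opposite order the sides swap, so results are given as the negative and the positive side. Dyes are not stated either, and with the same dyes on both arrays a probe's dye bias would recur on both.

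In a dividing cell, RNA polymerase I transcribes the large precursor of ribosomal RNA in the nucleolus, small nucleolar ribonucleoproteins (snoRNPs) guide its chemical modification, and successive sets of assembly factors cut it and fold it into the small and the large ribosomal subunit. Myc pairs with Max, binds the DNA sequence called the E-box and raises transcription of many of these factors, whereas Mxd proteins, Mxi1 and Mnt pair with Max and repress. Stimulated T cells induce Myc and enlarge their nucleoli before they divide.

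The members lay towards the negative side. Of the 41, 23 were negative on both arrays (56.1%), 4 were positive on both (9.76%) and 14 took opposite signs. Over all 14150 genes the shares were 33.6% negative and 29.6% positive. The median of the members' mean log2 ratios was -0.265, against -0.02 over all genes, with -0.12 on array 1 and -0.23 on array 2. The lowest 10% of all genes by mean held 14 of the members (34.1%). In RNA of a whole culture, fewer cells of a kind and less RNA per cell cannot be told apart. The sizes were modest: mean log2 ratios ran between -0.995 (Nolc1) and 0.27 (Nop14), no member was at least 2-fold from a ratio of 1 on both arrays on the same side (0.721% of all genes were so on the negative side and 0.233% on the positive), and 1, Odc1, was at least 1.5-fold negative on both, where 3.0% of all genes were. At 1.5-fold on the positive side there were 0 members, where 1.24% of all genes stood.

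No single member passed limma's moderated test. At an adjusted p of 0.05 it called 0 of 21427 probes (0%). The members' adjusted p ran between 0.178 and 0.988, and the 95% confidence interval of a member probe's mean had a half-width between 0.366 and 0.967. At an unadjusted p under 0.05 there were 7 member probes of 42 on the negative side (16.7%) and 0 on the positive, where 8.0% and 6.87% of all probes stood. The 7 were those of Odc1, Srm, Nop58, Nhp2, Nolc1, Nop2 and Ebna1bp2. Members are therefore described by side and size, and none is called changed.

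**Figure D1:**
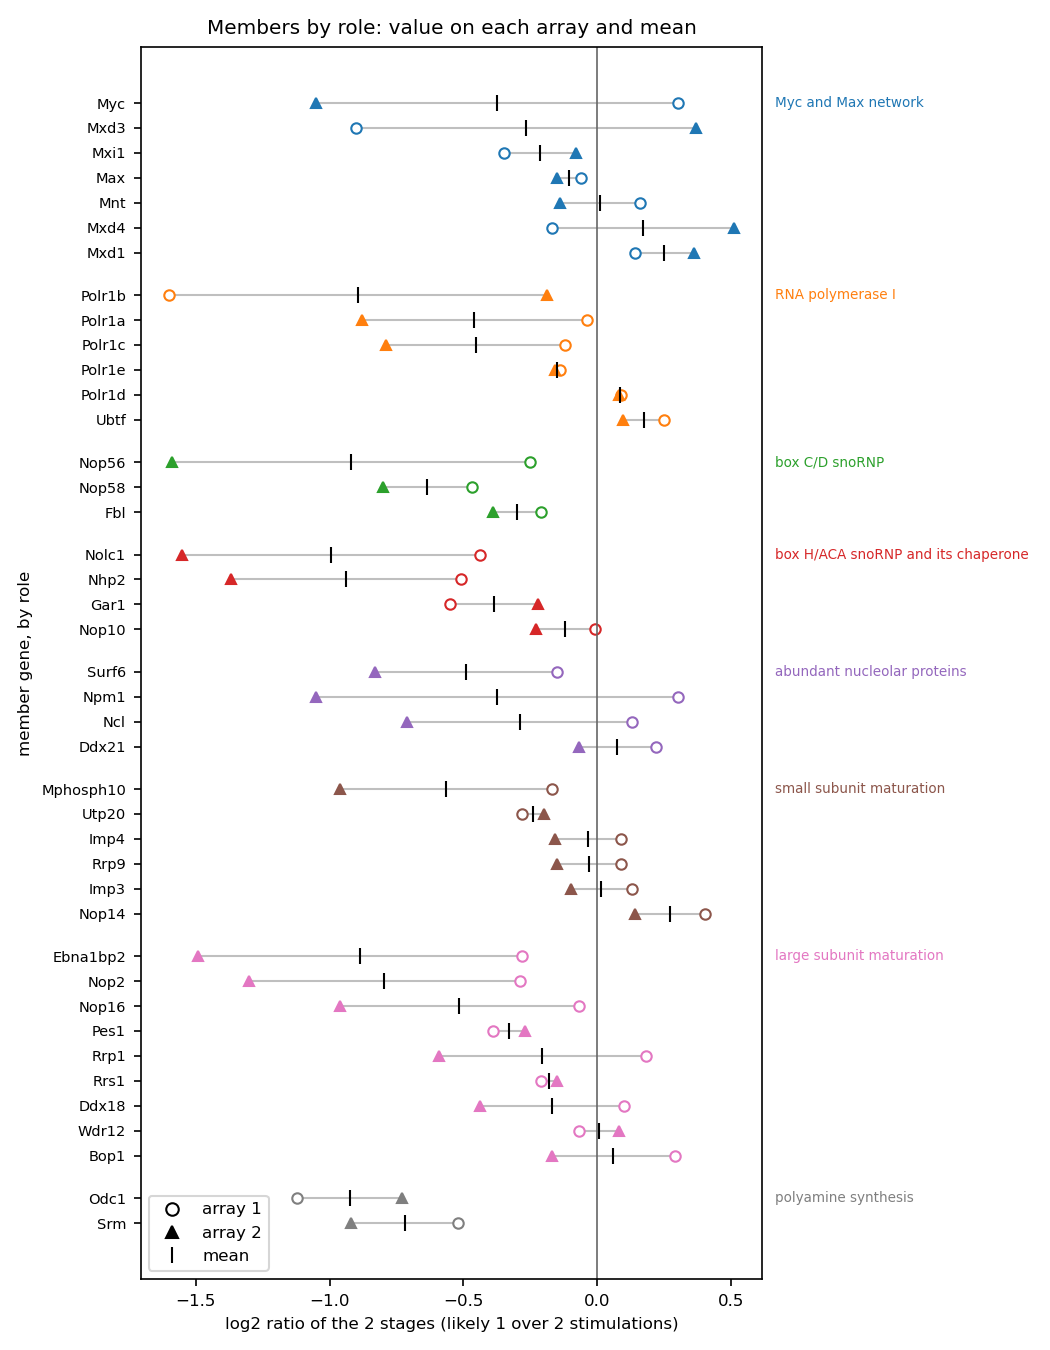
Log2 ratio of each of the 41 measured members (horizontal axis; likely 1 over 2 stimulations) on array 1 (open circles) and array 2 (triangles), with the mean as a black tick, grouped by role. Nolc1, Nhp2, Odc1 and Nop56 have the lowest means, and Myc and Npm1 lie on opposite sides on the 2 arrays.

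The arrays differed in how far these genes lay from 0. On array 2, 34 of the 41 were negative, and on array 1 26 were, where 51.0% and 51.6% of all genes were negative. The value on array 2 was the lower one for 30 members (73.2%), while this held for 51.1% of all genes. At 2-fold or more on the negative side array 2 had 7 members, Nop56, Nolc1, Ebna1bp2, Nhp2, Nop2, Myc and Npm1 (17.1%, against 3.09% of all genes). The probes of Myc and Npm1 carried the same pair of values. Array 1 had 2 members at that size, Polr1b and Odc1 (4.88%, against 1.56%). No member was in both sets, where 102 of all 14150 genes (0.721%) were. On the positive side 0 members were at least 2-fold on array 2 or on array 1, where 1.73% and 0.678% of all genes were. Across the 41 members the correlation between arrays was 0.132 (Pearson's r) and 0.276 (Spearman's rho), beside 0.519 and 0.444 across all genes, a description over genes of the same 2 arrays. It was 0.235 and 0.452 over the 32 ribosome biogenesis members and -0.538 and -0.679 over the 7 genes of the Myc and Max network. The median SD between arrays was 0.276 for the members and 0.166 for all genes.

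**Figure D2:**
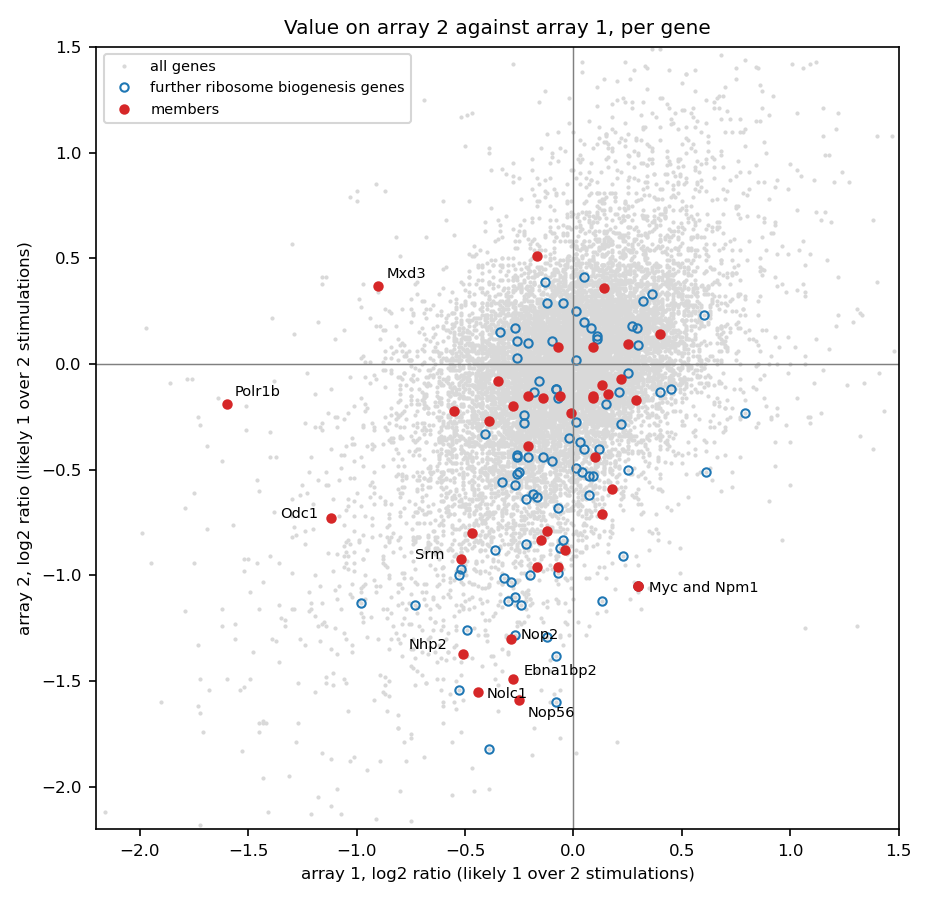
Log2 ratio on array 2 (vertical) against array 1 (horizontal) for the members (red), further ribosome biogenesis genes (blue rings) and all genes (grey; 111 genes lie outside the drawn range of -2.2 to 1.5). Most members lie below the horizontal zero line, and the 5 farthest down (Nop56, Nolc1, Ebna1bp2, Nhp2 and Nop2) have array 1 values between -0.51 and -0.25.

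The promoters of members were searched for the E-box because Myc and Max bind it. Windows of 300 bases, 250 before and 50 after the annotated start, came from RefSeq (GRCm38.p6) and were found for 41 of the 48 members, of which 35 were measured. The canonical E-box CACGTG, which reads the same on both strands, was present for 7 of the 35 (20.0%), against 10.3% of the 11127 measured genes with a window. It was as frequent in the 20 members negative on both arrays (4, 20.0%) as in the 15 others (3, 20.0%). The variant CACGCG, searched on both strands and not overlapping the canonical letters, was present for 12 of the 35 (34.3%), against 15.9%, with 9 of the 20 and 3 of the 15. The variant CATGTG, on both strands, was present for 6 (17.1%), against 12.1%. In the further ribosome biogenesis genes the canonical letters were present for 16 of 75 (21.3%), CACGCG for 23 (30.7%) and CATGTG for 6 (8.0%). A match describes the letters and is not a binding site.

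Windows of 5 members that were negative on both arrays are shown: Nop2 and Pes1 hold the canonical E-box, and Nolc1, Nhp2 and Odc1, 3 of the lowest means, hold the variant. They run 5′ to 3′ on the gene's strand, and capitals mark CACGTG in Nop2 and Pes1, and CACGCG or its reverse complement CGCGTG in the others. Pes1 also holds CGCGTG, left in lower case, beginning at base 4 of its window. The E-box of Nop2 (chr6:125131633-125131932, plus strand) begins 60 bases before the start, and that of Pes1 (chr11:3963725-3964024, plus strand) 2 bases after it. The variant begins 25 bases before the start in Nolc1 (chr19:46075597-46075896, plus strand), 3 bases after it in Nhp2 (chr11:51619523-51619822, plus strand), and 180 and 101 bases before it in Odc1 (chr12:17544623-17544922, plus strand).
Nop2: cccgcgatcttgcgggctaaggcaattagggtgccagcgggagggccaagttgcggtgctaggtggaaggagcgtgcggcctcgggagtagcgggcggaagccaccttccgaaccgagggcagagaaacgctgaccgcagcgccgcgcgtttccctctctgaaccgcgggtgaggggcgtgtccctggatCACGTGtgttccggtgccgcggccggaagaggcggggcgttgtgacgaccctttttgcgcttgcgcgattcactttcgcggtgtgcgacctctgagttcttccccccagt
Pes1: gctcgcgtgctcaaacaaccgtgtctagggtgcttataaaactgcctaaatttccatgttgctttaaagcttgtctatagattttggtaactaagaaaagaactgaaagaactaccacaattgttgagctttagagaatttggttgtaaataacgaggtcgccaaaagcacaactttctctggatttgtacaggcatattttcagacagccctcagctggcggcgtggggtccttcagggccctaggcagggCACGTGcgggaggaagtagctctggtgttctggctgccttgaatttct
Nolc1: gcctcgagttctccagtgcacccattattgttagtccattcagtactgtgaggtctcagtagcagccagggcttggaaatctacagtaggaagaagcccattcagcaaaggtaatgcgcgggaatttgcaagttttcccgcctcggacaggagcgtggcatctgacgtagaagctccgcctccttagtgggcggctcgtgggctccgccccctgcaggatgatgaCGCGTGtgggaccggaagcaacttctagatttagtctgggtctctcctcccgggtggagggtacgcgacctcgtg
Nhp2: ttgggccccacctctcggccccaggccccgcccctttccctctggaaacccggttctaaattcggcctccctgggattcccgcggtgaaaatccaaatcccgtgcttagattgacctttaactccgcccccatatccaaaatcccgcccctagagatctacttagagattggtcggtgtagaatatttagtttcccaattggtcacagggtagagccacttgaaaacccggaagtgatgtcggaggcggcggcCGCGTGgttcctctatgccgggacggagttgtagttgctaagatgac
Odc1: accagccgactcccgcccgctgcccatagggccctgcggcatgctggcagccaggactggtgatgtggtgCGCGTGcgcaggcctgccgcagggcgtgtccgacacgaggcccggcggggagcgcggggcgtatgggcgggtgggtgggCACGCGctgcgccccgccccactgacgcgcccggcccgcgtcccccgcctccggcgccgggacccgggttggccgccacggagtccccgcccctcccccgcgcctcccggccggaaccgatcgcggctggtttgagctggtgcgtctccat

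The 7 measured members grouped here as snoRNP genes were all negative on both arrays, where 33.6% of all genes were. By role, the group comprises box C/D genes, box H/ACA genes and the chaperone gene Nolc1. The count depends on this grouping, as snoRNP genes listed under small-subunit maturation are left out. Of these, Rrp9 took opposite signs (0.09 and -0.15) and Snu13, a further gene, was negative on both (-0.49 and -1.26). Nop56 and Nop58 form the scaffold of the box C/D particles that guide ribose methylation. Nop56 read -0.25 on array 1 and -1.59 on array 2, a mean of -0.92 ± 0.948 (SD, n = 2), and Nop58 read -0.47 and -0.80, a mean of -0.635 ± 0.233 (SD, n = 2). Fbl, the methyltransferase of the same particle, read -0.21 and -0.39. The far Nop56 value rests on array 2, whereas for Nop58 the arrays differed less. Of the box H/ACA particle, which converts uridine to pseudouridine, Nhp2 read -0.51 and -1.37, a mean of -0.94 ± 0.608 (SD, n = 2). Gar1 read -0.55 and -0.22, and Nop10 stood nearest 0 at -0.01 and -0.23. Nolc1, which escorts both kinds of snoRNP in the nucleolus, had the lowest mean of all members, with -0.44 and -1.55, a mean of -0.995 ± 0.785 (SD, n = 2) or a 1.99-fold distance from a ratio of 1; its window above holds the variant letters, as does that of Nhp2. limma's adjusted p was 0.227 for Nop58, 0.242 for Nhp2 and 0.273 for Nolc1.

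Both polyamine enzymes, classical Myc targets, were negative on both arrays. Odc1, ornithine decarboxylase and the rate-limiting enzyme of polyamine synthesis, read -1.12 on array 1 and -0.73 on array 2, a mean of -0.925 ± 0.276 (SD, n = 2), with a confidence half-width of 0.442. Srm, spermidine synthase, read -0.52 and -0.92, a mean of -0.72 ± 0.283 (SD, n = 2). Odc1 had the lowest limma p of the members, with an adjusted p of 0.178, and Srm followed at 0.215. Ranked by mean among all genes, they lay at percentiles 2.08 and 3.91. The rest of the pathway was mixed. On both arrays 1 of 6 measured genes was negative (16.7%, against 33.6% of all genes) and 2 were positive (33.3%, against 29.6%). Azin1, which protects ornithine decarboxylase from antizyme, read -0.42 and -0.75. Sat1, the acetylase that starts polyamine breakdown, read 0.58 and 0.82, and the antizyme gene Oaz2 0.12 and 0.54.

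Genes of RNA polymerase I itself lay on both sides. Its catalytic-core subunit genes were negative, Polr1a, the largest subunit, at -0.04 and -0.88 and Polr1b at -1.60 and -0.19. The far value came from array 2 for Polr1a and from array 1 for Polr1b, and the Polr1b mean of -0.895 ± 0.997 (SD, n = 2) had the widest confidence interval of the members, with a half-width of 0.967. Polr1c, a subunit shared with RNA polymerase III, read -0.12 and -0.79, while Polr1d, also shared, read 0.09 and 0.08. Polr1e, an associated factor, read -0.14 and -0.16. Ubtf, the factor that holds ribosomal DNA open for transcription, had 2 probes that differed in size, with 0.38 and 0.30 on 1 and 0.12 and -0.11 on the other, and a gene mean of 0.172 ± 0.11 (SD, n = 2). It counts as positive on both arrays by that mean, although 1 probe took opposite signs.

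Large-subunit assembly genes followed, with a median of -0.205. Of 9, 5 were negative on both arrays (55.6%, against 33.6% of all genes) and 0 positive (against 29.6%). Ebna1bp2, whose yeast counterpart acts in large-subunit processing, read -0.28 and -1.49, a mean of -0.885 ± 0.856 (SD, n = 2). Nop2, a methyltransferase of the large-subunit RNA whose E-box is printed above, read -0.29 and -1.30, a mean of -0.795 ± 0.714 (SD, n = 2), and Nop16 read -0.07 and -0.96. In each of these 3 the value on array 2 was the far one. The partners of the PeBoW complex did not lie together: Pes1 read -0.39 and -0.27, Bop1 0.29 and -0.17, and Wdr12 -0.07 and 0.08. Rrs1 read -0.21 and -0.15, the helicase gene Ddx18 0.10 and -0.44, and Rrp1 0.18 and -0.59.

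Small-subunit genes lay nearer 0, with a median of -0.032 over 6 genes, 2 negative (33.3%, near the 33.6% of all genes) and 1 positive on both arrays. Mphosph10, a component of the particle that makes the first cuts, stood apart with -0.17 and -0.96. Its direct partners Imp3 and Imp4 read 0.13 and -0.10, and 0.09 and -0.16. Utp20 read -0.28 and -0.20, Rrp9 0.09 and -0.15, and Nop14 0.40 and 0.14.

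Of the role groups, the abundant nucleolar proteins had the widest gap between the arrays' medians, with a median of 0.175 on array 1 and -0.77 on array 2. Npm1, nucleophosmin, read 0.30 and -1.05, and Ncl, nucleolin, 0.13 and -0.71. The helicase gene Ddx21 read 0.22 and -0.07. Surf6 alone of the 4 was negative on both, at -0.15 and -0.83. For Npm1 and Ncl the arrays lie on opposite sides, so no side is given for them.

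Myc itself had no settled side, with 0.30 on array 1 and -1.05 on array 2, a mean of -0.375 ± 0.955 (SD, n = 2). The probe of Npm1 carried the same pair of values, and the cause was not tested. The limma adjusted p of Myc was 0.645. Its partner Max stood close to 0 at -0.06 and -0.15. Among the repressors that compete for Max, Mxd1 was positive on both arrays with 0.14 and 0.36, and Mxi1 negative on both with -0.35 and -0.08. Mxd3 read -0.90 and 0.37, Mxd4 -0.17 and 0.51, and Mnt 0.16 and -0.14. On both arrays 2 of these 7 genes were negative and 1 positive, shares of 28.6% and 14.3% beside the 33.6% and 29.6% of all genes. Of the wider family, Mycn, a close relative of Myc, read -1.38 and -0.70, and Mga, a large Max-binding repressor, 0.50 and 0.77. The chromatin ATPase genes Ruvbl1 and Ruvbl2, whose products bind Myc, read -0.54 and -0.98, and -0.27 and -0.53.

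The members whose windows hold E-box letters, printed above, did not lie alike: at 2-fold, Nop2, Nolc1 and Nhp2 were negative on array 2 only, Odc1 on array 1 only, and Pes1 on neither. Of other members with the canonical letters, Max and Utp20 were negative on both arrays, and Imp4, Mnt and Mxd4 took opposite signs. Of other members with the variant CACGCG, Nop10, Polr1e, Mphosph10, Nop16 and Polr1c were negative on both arrays. Ddx21 and Rrp1 took opposite signs, and Ubtf was positive on both by its gene mean.

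**Figure D3:**
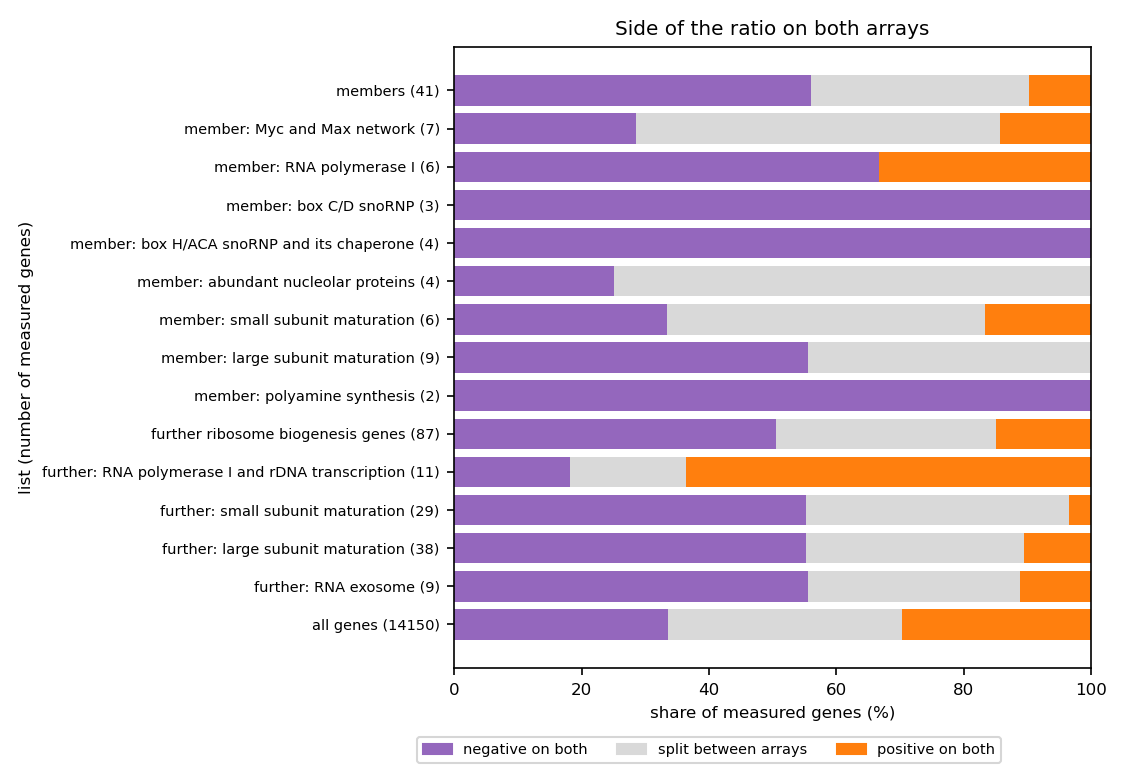
Share of measured genes (percent, horizontal) negative on both arrays (purple), of opposite sign or 0 on an array (grey) and positive on both (orange), for the members, their role groups, the further lists and all genes, with the number of genes in brackets. The snoRNP and polyamine groups are wholly negative, and the further RNA polymerase I list leans to the positive side.

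The rest of the ribosome biogenesis pathway, taken from a list of 118 further genes, lay on the same side as the members. Of 87 measured, 44 were negative on both arrays (50.6%, against 33.6% of all genes) and 13 positive (14.9%, against 29.6%). Their median was -0.235 (-0.08 on array 1, -0.44 on array 2). On array 2, 18 of them were at least 2-fold negative (20.7%, against 3.09% of all genes). On array 1 0 were, against 1.56%. The value on array 2 was the lower one for 68 of the 87 (78.2%, against 51.1% of all genes).

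Within that list the maturation genes lay on the negative side and those of ribosomal DNA transcription on the positive. Further small-subunit genes were negative on both arrays for 16 of 29, with 1 positive and a median of -0.24. They were led by Pno1, which acts late in small-subunit maturation, at -0.39 and -1.82, and by Tbl3, a processome component, at -0.98 and -1.13. Snu13, the protein that first binds box C/D snoRNAs, read -0.49 and -1.26, and on the other side Ddx52 stood at 0.01 and 0.25. Tbl3 was far from 0 on both arrays, with a mean of -1.055 ± 0.106 (SD, n = 2), whereas Pno1 was far on array 2 and nearer 0 on array 1. Further large-subunit genes were negative on both for 21 of 38 (55.3%), with 4 positive (10.5%) and a median of -0.342. Lyar, a nucleolar zinc-finger protein, read -0.53 and -1.54, and Mrto4 -0.73 and -1.14. Rpf2, which brings in the small ribosomal RNA of the large subunit, read -0.08 and -1.60. Nvl, an ATPase of large-subunit maturation, was the farthest on the positive side of this list at 0.32 and 0.30, followed by Noc3l at 0.05 and 0.20 and Ddx55 at 0.08 and 0.17. Of 9 RNA exosome genes, which trim precursor RNA, 5 were negative (55.6%) and 1 positive (11.1%) on both. Exosc9 read -0.25 and -0.51, Exosc8 -0.21 and -0.44 and the cofactor gene C1d -0.05 and -0.83, while Exosc1 read 0.11 and 0.12. The further genes of ribosomal DNA transcription went the other way, at a median of 0.225. On both arrays 7 of 11 were positive (63.6%) and 2 negative (18.2%). The terminator gene Ttf1 read 0.60 and 0.23, Taf1c, a subunit of the polymerase I selectivity factor, 0.36 and 0.33, and Cavin1, a caveolar protein that also releases transcripts, 0.295 and 0.17. The 2 negative on both arrays were Mybbp1a, a nucleolar Myb-binding protein, at -0.30 and -1.12, and Baz2a, a silencer of ribosomal DNA, at -0.07 and -0.16. The remaining 2 took opposite signs. No test of the difference between these lists was made.

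Further genes that Myc is known to induce outside the ribosome lay farther from 0. Of 24 measured, 18 had negative values on both arrays and 1 had positive ones. Their median was -0.545 (-0.34 on array 1, -0.76 on array 2). Shmt1, an enzyme of one-carbon metabolism, read -0.80 and -2.02. Hspd1, the mitochondrial chaperonin, read -0.81 and -1.72 and Nme1, a nucleoside diphosphate kinase, -0.72 and -1.45. The telomerase gene Tert was the one positive on both, at 0.07 and 0.105. Of 7 genes that Myc is known to repress, 3 were positive on both arrays (42.9%, against 29.6% of all genes). On the other side 2 were negative on both (28.6%, against 33.6%), and the list's median was 0.295. Ndrg1 read 0.255 and 0.985, the stress gene Gadd45a 0.23 and 0.53 and Ndrg2 0.42 and 0.17. The cyclin-dependent kinase inhibitor genes Cdkn2b (-2.48 and -2.89) and Cdkn1a (-1.72 and -1.65) lay far on the opposite side from these 3, at least 2-fold on both arrays.

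**Figure D4:**
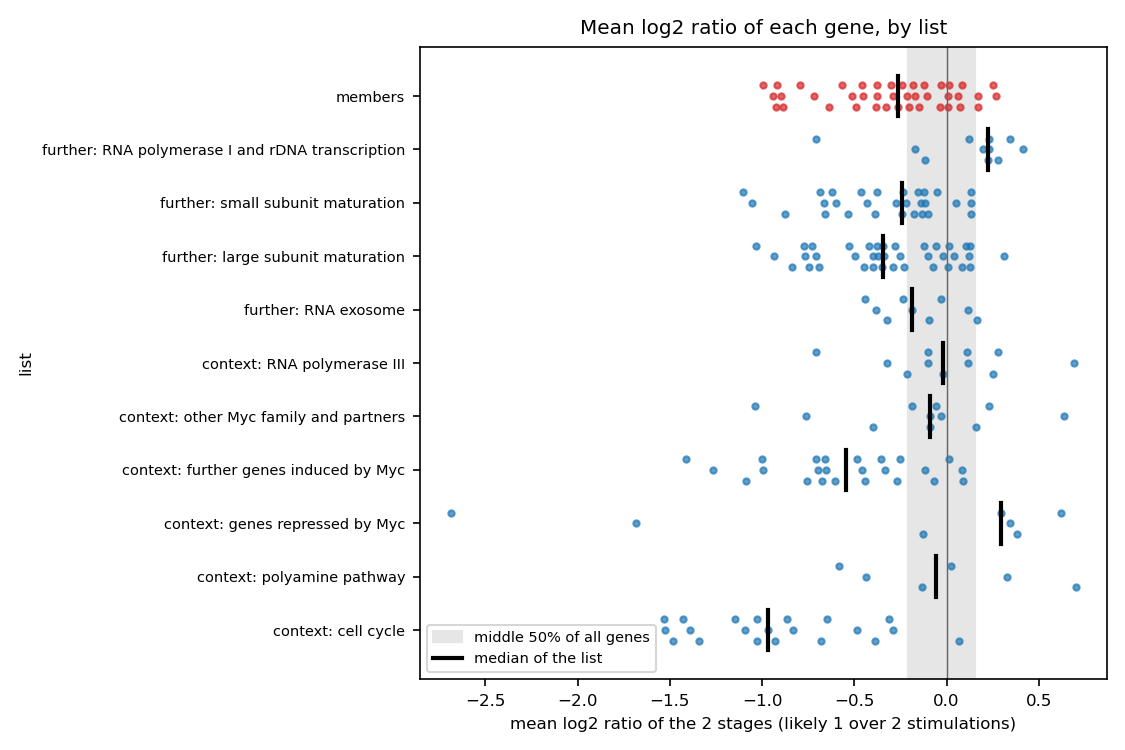
Mean log2 ratio of each gene (horizontal; likely 1 over 2 stimulations) for the members (red) and the other lists (blue), with each list's median as a black bar and the middle 50% of all genes shaded (-0.21 to 0.155). The members' median of -0.265 lies just below the shaded range, that of the genes induced by Myc at -0.545 and that of the cell cycle genes at -0.97.

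Cell cycle genes lay on the same side as the members and farther out. Of 21 measured, 19 had negative values on both arrays (90.5%, against 33.6% of all genes) and 0 positive ones (against 29.6%). Their median was -0.97 (-0.97 on array 1, -1.08 on array 2). At least 2-fold negative on both arrays were 7, where 0.721% of all genes were so: Ccna2, Ccnb2, Bub1, Mki67, Rrm2, E2f1 and Birc5. These 7 had means between -1.53 and -1.145. The part of cell cycle genes in the members' values was not tested.

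Markers of other cells, in short lists, did not lie on 1 side. Of 7 B cell markers 4 were positive on both arrays (57.1%, against 29.6% of all genes) and 1 negative (14.3%, against 33.6%). The list's medians were 0.11 on array 1 and 0.17 on array 2. Cd79b stood highest at 0.67 and 1.62, followed by Cd79a at 0.31 and 1.06 and Cd22 at 0.01 and 0.65, while Blk read -0.05 and -0.04. Of 4 myeloid markers 2 were negative and 1 positive, with Cd14 at -0.55 and -0.20, Itgam at -0.04 and -0.37 and Lyz2 at 0.275 and 0.145, and both erythroid markers took opposite signs. T cell markers were positive on both arrays for 5 of 8 (62.5%) and negative for 1 (12.5%). Cd8a read 0.37 and 0.90, Cd3d 0.11 and 0.81, Cd3g 0.13 and 0.42 and Zap70 -0.31 on both. Ratios hold no levels, so they cannot show whether a marker was present or absent, and the part of other cells in the members' values was not tested.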

How the data were processed

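The deposited table holds signed values, 1 for each probe of an array, read as log2 ratios between the channels. The steps by which the authors reached these log2 values (scanner, background correction, normalization, filters) are not given in the sources used here. Per the values, they were centred near 0 (medians of 0.01 and 0.02), so a shift common to all genes would not be seen. Without intensities the signal under a ratio is unknown, and having 2 arrays limits the precision.

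Of 21919 probes, 21427 had both values. The platform's annotation names 1 gene for 15998 probes, several for 288 and none for 5633, and all 41 measured members carry the same symbol and Entrez ID in RefSeq. Each gene is the mean of its probes.

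limma 3.58.1 in R 4.3.3 tested an intercept over both arrays against 0 (two-sided) over 21427 probes, with Benjamini-Hochberg adjustment. It was tested on simulated data. Lists were counted, with no list test. Members were named wherever measured, and other list genes where at least 2-fold on both arrays or among the 3 farthest on each side with 1 sign. The members and lists were chosen with earlier results of these data known. Alternatives were median centring, quantile normalization, other probe summaries, spread models and thresholds, and each array alone.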

Additional observations from a re-analysis of the deposited data

How the results depend on the processing

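The count of 0 probes past limma's adjusted p of 0.05 was also 0 after median centring, quantile normalization, with a robust spread model and with 1 value per gene, where limma's unadjusted p under 0.05 gave 829 positive and 1462 negative genes. With no moderation it was 241, all 241 being probes with equal values on both arrays. With a single array no degree of freedom is left for the test. The count of 183 probes with 2-fold ratios on both arrays became 880 at 1.5-fold, 577 if the values are natural logs, and 453 to 1003 on a single array. On single arrays 26 to 34 members were negative and 7 to 15 positive, with a median of -0.23 to -0.12. Without array 2 (array 1 alone) the median was -0.12, and array 2 alone gave -0.23. At 1.5-fold on both arrays 1 member was negative and 0 were positive. Of the further ribosome biogenesis genes 53 to 65 were negative and 22 to 34 positive on single arrays, with medians of -0.44 to -0.08. Median centring and quantile normalization kept the members' counts at 23 and 4. The median over probes could not change them, since each member had 1 probe except Ubtf, which had 2. Median centring turned the sign of 2 member means near 0, Mnt and Wdr12. A single array turned 5 (array 2 alone) or 9 (array 1 alone), Myc, Npm1 and Ncl among the 9. No paired analysis was possible because the series has 1 group. No filter on dim probes could be applied without intensities.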

Other observations

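Genes of RNA polymerase III, which makes transfer RNA and the smallest ribosomal RNA, lay on both sides, with a median of -0.02. On both arrays 4 of 11 measured genes were negative (36.4%, against 33.6% of all genes) and 5 positive (45.5%, against 29.6%). Maf1, the repressor of this polymerase, was the farthest on the positive side with 0.34 and 1.04, and the subunit gene Polr3k the farthest on the negative side with -0.27 and -1.14. Polr3d read -0.08 and -0.57 and Polr3e -0.23 and -0.20, whereas Polr3a read 0.20 and 0.30 and the initiation factor gene Brf2 0.01 and 0.55. Trrap, a scaffold protein that binds Myc, read 0.04 and 0.42.

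The probes of Myc and Npm1 carried the same pair of values, 0.30 and -1.05, although they are different probes of different genes. This pair was found on 3 of the 21427 probes. Over all probes a shared pair was common, at 14369 of 21427 (67.1%). Of the 1270 probes at least 2-fold on 1 array or more, 44 shared their pair of values with another such probe (3.46%). The cause was not tested.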
